A study of Homo sapiens with 8 samples.

Results

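NCI-H1944 cells, collected after a pulse of an MPS1 inhibitor, were compared with vehicle-treated cells of the same line, gene by gene. The libraries were chosen by their labels: the 2 inhibitor and 2 vehicle libraries of this line, 4 of the 8 libraries in the series. Of the 46427 genes in the table, 16738 passed a minimum-count filter (at least about 10 counts in 2 libraries) and are described here whatever their outcome. NCI-H1944 is an established human lung adenocarcinoma line with mutant STK11. All 4 libraries carry the genotype label WT. The inhibitor group received BAY-1217389 at 100 nM for 48 hours and the control group received DMSO, the solvent, for the same time. Both groups then had a washout and 24 hours of further culture, in RPMI medium with serum. Library preparation selected RNA by its poly(A) tail with a stranded mRNA kit, so transcripts without a poly(A) tail are measured poorly. The design is limited to 1 line, 1 inhibitor, 1 dose and 1 time after washout. Nothing in the labels says that the 2 replicates of a group are separate cultures. The p-values therefore rest on the spread within these pairs of samples alone, and that spread may be technical.

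MPS1, the product of TTK, is a kinase of the spindle assembly checkpoint, which holds cells in mitosis until every chromosome is attached to the spindle. When it is inhibited, cells leave mitosis with unattached or misattached chromosomes, and daughter cells can carry the wrong number of chromosomes, micronuclei and cytosolic nucleic acid. Such nucleic acid can be detected by RNA sensors of the RIG-I family, which signal through MAVS, and by the DNA sensor cGAS, which signals through STING. Both routes lead to interferon genes, and secreted interferon acts back on cells through JAK kinases and the transcription factor complex ISGF3 to raise the interferon-stimulated genes. The title of the series names RNA sensing after chromosome missegregation as its question.

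Library totals ran from 38904473 to 43661342 counts, and 20447 to 21773 genes had at least 1 count. The vehicle libraries had fewer genes with a count (20563 and 20447) than the inhibitor libraries (21742 and 21773). Genes were tested with edgeR's quasi-likelihood F test, and each adjusted p below comes from that test with Benjamini-Hochberg adjustment over all 16738 genes. A gene is said to have risen or fallen only where its adjusted p was under 0.05. Levels are CPM, counts per 1000000 counts of the library after TMM scaling, and differences are log2 values of inhibitor minus vehicle with their standard error (SE) from the same fit. Each group has n = 2 throughout.

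The inhibitor group differed from the vehicle group at 4346 genes, 26.0% of those tested. Of these, 2271 (13.6%) rose and 2075 (12.4%) fell, so the numbers in the 2 directions were near each other. The sizes were not. The rises at least 1.5-fold in size numbered 854 (5.10%), those at least 2-fold 521 (3.11%), those at least 4-fold 242 (1.45%), those at least 8-fold 115 (0.687%) and those at least 16-fold 64 (0.382%). The falls at least 1.5-fold in size numbered 173 (1.03%), those at least 2-fold 38 (0.227%) and those at least 4-fold 13 (0.0777%). A gene can pass the filter through 1 group alone, which favours genes that differ. Counting only genes that passed it in both libraries of both groups, 352 rises and 28 falls were at least 2-fold, and 102 and 3 at least 4-fold. The tallies of rises at least 8- and 16-fold include genes listed at 0 in both vehicle libraries. The fitted fold of such genes depends on the prior count of the fit, so those tallies are uncertain. They were not counted for genes that passed the filter in both groups. The median called rise was 0.41 and the median called fall -0.25 on the log2 scale, while the median over all genes tested was 0.00. The genes that fell held 38.4% and 38.6% of counts in the vehicle libraries and 33.3% and 33.2% in the inhibitor libraries. The genes that rose at least 2-fold held 0.809% and 0.803% of counts after vehicle and 3.20% of counts in each inhibitor library.

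**Figure D1:**
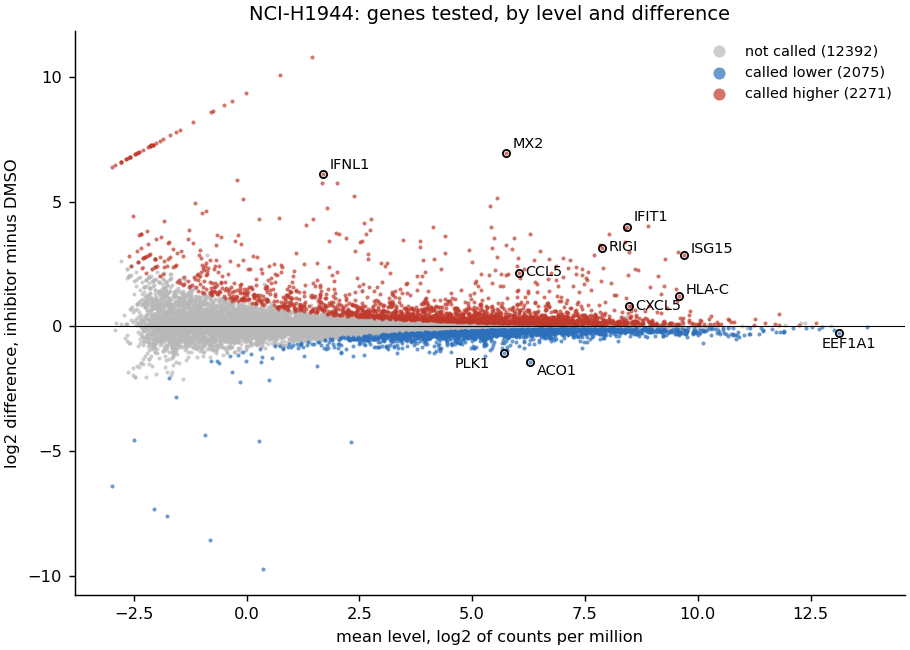
Each point is 1 of the genes tested, with its mean level (log2 of CPM) on the x axis and its log2 difference, inhibitor minus vehicle, on the y axis. Called rises (2271, red) reach much larger sizes than called falls (2075, blue). The diagonal lines of points at the upper and lower left are genes listed at 0 in both libraries of 1 group, whose fitted difference depends on the prior count and is not quoted.

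The extremes drew unevenly on the gene lists, which were written with earlier results of these data known. The shares below therefore describe the lists and do not test them. Of the 242 genes that rose at least 4-fold, 68 (28.1%) were on the lists of interferon, sensing and antigen presentation genes, which hold 178 of the genes tested (1.06%). Only 102 of these 242 passed the filter in both libraries of both groups, and the list share among those was not counted. Of the 173 genes that fell at least 1.5-fold, 52 (30.1%) were on the list of mitosis genes, which holds 0.639% of the genes tested. The mitosis list supplied 4 of the 38 genes that fell at least 2-fold and none of the 13 that fell at least 4-fold, which were on no list.

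IFIT1, whose protein binds viral RNA that lacks the host's cap methylation, was at 40.4 and 40.9 CPM in the vehicle libraries and at 644 and 646 CPM in the inhibitor libraries. All inhibitor values lay far above all vehicle values. The difference was 3.99 ± 0.03 (SE), a 15.9-fold rise (edgeR adjusted p = 1.558e-20). RIGI, the gene of the sensor RIG-I, which recognises RNA with a triphosphate end, was at 48.1 and 47.7 CPM after vehicle and at 429 and 415 CPM after the inhibitor. Its groups did not overlap, and it rose 8.81-fold (3.14 ± 0.04, SE, edgeR adjusted p = 6.529e-19). IFNL1, an interferon of type III, was found with 5 and 2 counts after vehicle and with 241 and 309 counts after the inhibitor. The vehicle counts are near the limit of detection, so the difference of 6.11 ± 0.33 (SE, edgeR adjusted p = 5.402e-10) is less precise than for the other markers. CCL5, a chemokine that draws T cells and other leukocytes, was at 23.1 and 25.5 CPM after vehicle and at 103 and 111 CPM after the inhibitor. It rose 4.42-fold with no overlap (edgeR adjusted p = 2.235e-14). PLK1, a kinase needed for mitotic entry and spindle assembly, went the other way. It was at 71.3 and 70.0 CPM after vehicle and at 34.8 and 33.4 CPM after the inhibitor, a 2.07-fold fall (-1.05 ± 0.05, SE, edgeR adjusted p = 7.843e-11).

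**Figure D2:**
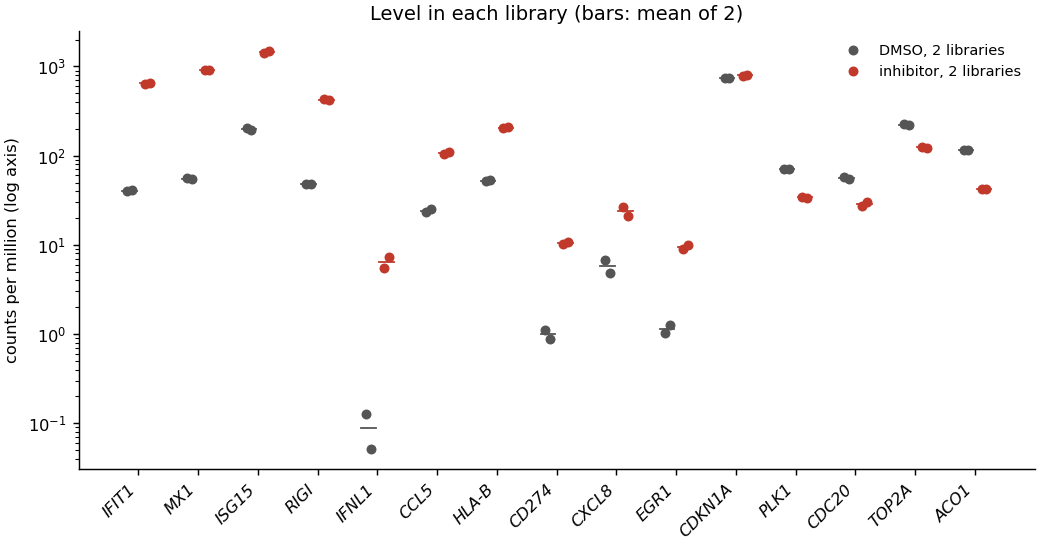
Level of 15 genes in each library, in CPM on a log axis, with the 2 vehicle and the 2 inhibitor libraries as points and the group mean as a bar. IFIT1 stands at 40.4 and 40.9 CPM after vehicle against 644 and 646 after the inhibitor, while PLK1 stands at 71.3 and 70.0 against 34.8 and 33.4. For all 15 genes plotted the points of the 2 groups do not overlap, although for CDKN1A they lie close together. Over all genes tested the groups did not overlap at 30.5% with the inhibitor higher and at 30.5% with it lower.

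Promoter motifs were counted by how the genes changed. RefSeq promoter sequences (GRCh38.p14, 250 bases before to 50 bases after the start) were matched to 12412 of the genes tested. The interferon-stimulated response element (ISRE), to which ISGF3 and IRF proteins bind, was searched on both strands as GAAA, any 2 bases and GAAA. Here and below, a gene counted as a match if any of its promoters held the motif. The ISRE was found for 59 of 162 genes that rose at least 4-fold (36.4%) and for 25 of 183 that rose 2- to 4-fold (13.7%). Genes that rose at least 4-fold include some that passed the filter through the inhibitor group alone, and the share without them was not counted. The share was 5.59% for genes with smaller rises and 2.26% for genes that fell at least 1.5-fold. The share over all genes tested was 4.08%, and over all RefSeq genes with a promoter 4.38%. Counted by single promoters and not by genes, it was 3.57% of those listed. The cell cycle homology region (CHR), at which repressor complexes silence mitotic genes outside mitosis, was searched on both strands as TTTGAA or TTCGAA. It was found for 60 of 133 genes that fell at least 1.5-fold (45.1%), against 15.6% over all genes tested. The share was 19.5% over all RefSeq genes with a promoter and 16.4% over single promoters. The CHR was also found for 36 of 162 genes that rose at least 4-fold (22.2%). The CCAAT box, searched on both strands as CCAAT, was found for 81 of the 133 genes that fell (60.9%), against 42.6% over all genes tested. The share was 39.7% over all RefSeq genes with a promoter and 34.6% over single promoters. A match describes these letters in this window and is not evidence that a factor bound there.

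**Figure D3:**
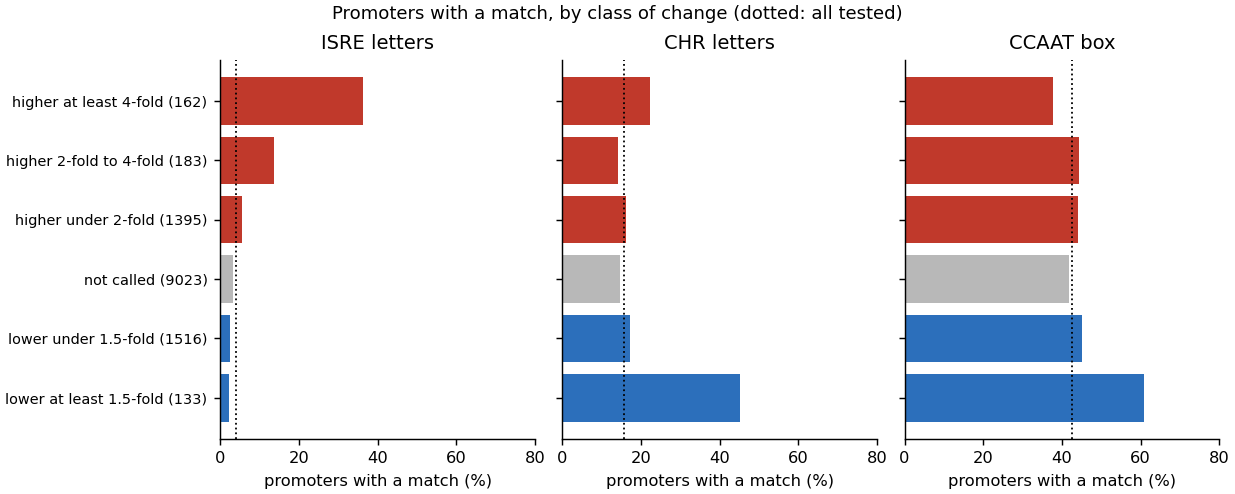
Percent of genes with a listed promoter (x axis) for which any promoter holds the ISRE, CHR or CCAAT motif, by how the gene changed (y axis). The dotted line is the share over all genes tested. The ISRE share is 36.4% for genes that rose at least 4-fold against 4.08% over all genes tested, and the CHR share is 45.1% for genes that fell at least 1.5-fold and 22.2% for genes that rose at least 4-fold, against 15.6%.

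The next 7 sequences show these motifs in promoters of genes the results turn on: a first-line effector, a ubiquitin-like modifier, an RNA sensor, an interferon and a chemokine that rose or were found only in inhibitor libraries, then 2 mitotic genes that fell. Each is the 230 bases before the gene's RefSeq start (GRCh38.p14), 5′ to 3′ on the gene's own strand. In the first 5, capitals mark ISRE matches in either orientation, with overlapping matches joined into 1 stretch. In the last 2, capitals mark CHR matches. The windows are, in order, chr10:89392393-89392622 (plus strand), chr1:1013267-1013496 (plus), chr2:162318685-162318914 (minus), chr19:39296177-39296406 (plus), chr4:76023498-76023727 (minus), chr16:23678659-23678888 (plus) and chr1:43358751-43358980 (plus). All lie directly upstream of the first exon.
IFIT1: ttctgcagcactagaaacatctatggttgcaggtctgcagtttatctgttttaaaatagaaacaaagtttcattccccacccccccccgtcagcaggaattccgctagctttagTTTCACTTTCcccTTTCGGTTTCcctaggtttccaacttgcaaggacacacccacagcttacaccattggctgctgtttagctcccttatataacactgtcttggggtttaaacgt
ISG15: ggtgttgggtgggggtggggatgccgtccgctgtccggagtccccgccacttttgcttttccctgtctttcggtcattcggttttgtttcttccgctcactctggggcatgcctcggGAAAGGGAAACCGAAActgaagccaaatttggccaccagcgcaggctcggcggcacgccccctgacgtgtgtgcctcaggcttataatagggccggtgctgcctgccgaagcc
IFIH1: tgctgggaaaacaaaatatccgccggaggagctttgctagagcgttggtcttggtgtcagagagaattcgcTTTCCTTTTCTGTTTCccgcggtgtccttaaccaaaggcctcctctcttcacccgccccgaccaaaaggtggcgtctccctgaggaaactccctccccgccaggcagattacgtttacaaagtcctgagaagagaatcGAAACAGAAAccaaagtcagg
IFNL1: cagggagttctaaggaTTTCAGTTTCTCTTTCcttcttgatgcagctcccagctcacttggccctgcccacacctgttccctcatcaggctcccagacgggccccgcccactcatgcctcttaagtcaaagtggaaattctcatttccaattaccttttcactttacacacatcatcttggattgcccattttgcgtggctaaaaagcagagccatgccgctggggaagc
CXCL10: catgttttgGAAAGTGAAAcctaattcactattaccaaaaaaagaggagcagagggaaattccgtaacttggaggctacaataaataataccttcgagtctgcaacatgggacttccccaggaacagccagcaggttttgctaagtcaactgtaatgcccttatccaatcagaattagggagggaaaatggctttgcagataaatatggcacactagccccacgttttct
PLK1: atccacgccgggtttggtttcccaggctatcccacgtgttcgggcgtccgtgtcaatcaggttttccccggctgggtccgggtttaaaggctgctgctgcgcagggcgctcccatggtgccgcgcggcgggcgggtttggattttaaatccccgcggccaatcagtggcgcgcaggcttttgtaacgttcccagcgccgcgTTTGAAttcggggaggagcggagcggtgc
CDC20: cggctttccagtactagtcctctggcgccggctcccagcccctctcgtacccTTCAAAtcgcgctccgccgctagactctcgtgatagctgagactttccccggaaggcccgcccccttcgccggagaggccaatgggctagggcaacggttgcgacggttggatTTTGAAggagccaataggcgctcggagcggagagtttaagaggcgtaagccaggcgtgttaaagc

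Most RNA sensing genes tested rose. Of 30 tested, 18 rose and 2 fell, against 13.6% and 12.4% of all genes tested, and the median difference was 0.91. Of 7 sensors listed, the 6 that passed the filter rose, and ZBP1, with 0, 0, 3 and 8 counts, was not tested. IFIH1, the gene of MDA5, which recognises long double-stranded RNA, was at 20.5 and 19.1 CPM after vehicle and at 166 and 159.6 CPM after the inhibitor, an 8.22-fold rise. DHX58 (1.73), TLR3 (2.19) and EIF2AK2 (1.75), the kinase PKR that stops translation on double-stranded RNA, also rose on the log2 scale. The enzymes that make 2-5A, a messenger of the antiviral response, rose as well, together with the related OASL: OAS1 by 2.26, OAS2 by 3.92, OAS3 by 2.71 and OASL by 2.85.

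The adaptors and kinases downstream of the sensors gave mostly smaller differences, in both directions. Of 6 cofactors and adaptors tested, 2 rose, TRIM25 the most (1.12), and 1 fell. Of 4 kinases and IRF genes tested, IKBKE (0.81) and IRF7 rose and none fell. MAVS, the mitochondrial adaptor of RIG-I and MDA5, was at 148 and 140.4 CPM after vehicle and at 116 and 121 CPM after the inhibitor. It fell by 0.28 ± 0.04 (SE) on the log2 scale (edgeR adjusted p = 5.049e-05). TBK1, the kinase that phosphorylates IRF3, differed by 0.11 (edgeR adjusted p = 0.0821), and IRF3 stood at 59.8 and 61.6 CPM against 59.9 and 67.1 CPM (edgeR adjusted p = 0.4268). IRF3 is known to be controlled by phosphorylation, which these data do not measure. IRF7, which is itself interferon-stimulated, rose 4.92-fold, from 22.5 and 25.1 CPM to 116 and 119 CPM. Of 9 genes of RNA editing and decay tested, 4 rose, 1 fell and 4 did not pass (median 0.14). Among those that rose, PNPT1, a mitochondrial RNA-degrading enzyme, went from 57.8 and 58.4 CPM to 297 and 284 CPM (4.99-fold), and ADAR, which edits adenosines in double-stranded RNA, from 502 and 485 CPM to 997 and 980.2 CPM (2.002-fold).

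Of 14 DNA sensing genes tested, 6 rose and 1 fell, with a median of 0.21, beside 13.6% and 12.4% of all genes tested. STING1 had 594 and 556 counts after vehicle and 1252 and 1293 after the inhibitor, and it rose by 1.01 ± 0.08 (SE). CGAS, the sensor upstream of it, had 670 and 731 counts against 987 and 879. Its rise of 0.28 ± 0.08 (SE, edgeR adjusted p = 0.02189) was lost by DESeq2, with no low-count filter, without vehicle replicate 1 and without inhibitor replicate 1. IFI16 rose by 1.83. TREX1, the nuclease that removes cytosolic DNA, rose by 2.55 (a readthrough record that overlaps it is counted apart), and SAMHD1, which breaks down nucleotides, rose 8.69-fold from 12.5 and 11.9 CPM to 106 CPM in each inhibitor library.

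The interferon transcripts were of low level and of few kinds. Of the 22 interferon genes, 12 were at 0 in all 4 libraries, and no interferon alpha gene exceeded 2 counts in a library. IFNB1, the type I interferon made by non-immune cells, was listed at 0 in both vehicle libraries and had 26 and 22 counts in the inhibitor libraries. IFNL2 was listed at 0 after vehicle and had 202 and 270 counts after the inhibitor. IFNL3 had 0 and 9 counts after vehicle and 239 and 302 after the inhibitor (5.74 ± 0.43, SE). The 4 interferon genes tested (IFNB1, IFNL1, IFNL2 and IFNL3) passed the filter only through the inhibitor group, so their calls are no independent support. IFNL2 and IFNL3 are near-identical copies, so how reads were split between them is uncertain. All interferon genes together came to 0.228 and 0.383 CPM after vehicle and to 16.5 and 21.5 CPM after the inhibitor, and after the inhibitor the type III genes held most of it.

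A listed 0 needs care in this table. In the vehicle group 169 genes were at 0 in 1 replicate while the other replicate held at least 10 counts, and in the inhibitor group 193 genes were. More genes held the value 2 than the value 1 in every library, for example 855 against 752 in vehicle replicate 1. Whether a 0 here always means that no read came from the gene was not tested. For genes listed at 0 in both libraries of a group, counts are therefore given with no fold.

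The receptors for these interferons were measured with the rest of the signalling chain, of which 19 of 30 genes tested rose and none fell (median 0.22). IFNLR1, the chain specific to type III interferon, had 121 and 114 counts after vehicle and 189 and 230 after the inhibitor. It rose by 0.70 ± 0.17 (SE, edgeR adjusted p = 0.006194), a call lost without inhibitor replicate 2. IFNAR1, of the type I receptor, differed by 0.05 (edgeR adjusted p = 0.5436), and IFNAR2 rose by 0.24. STAT2 and IRF9, which are parts of ISGF3, rose by 1.85 and 0.97, and IRF1 rose by 1.48. TYK2 did not pass (edgeR adjusted p = 0.5571), while JAK1 (0.17) and JAK2 (0.40) rose by small amounts. USP18, which removes ISG15 and blocks the type I receptor, rose 13.1-fold, from 11.6 and 10.5 CPM to 144 and 146 CPM; its pseudogene copy USP41P is a record of its own, so the split of reads is uncertain. SOCS1, another inhibitor of JAK signalling, had 4 and 10 counts after vehicle and 51 and 29 after the inhibitor. It passed the filter only through the inhibitor group, and its rise of 2.36 was lost without inhibitor replicate 1.

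Most interferon-stimulated effectors rose and none fell. Of 71 that passed the filter, 7 did so only through the inhibitor group. Of the other 64, 61 rose, 56 of them at least 2-fold, with a median difference of 2.22, against 0.00 over all genes tested. The 76 genes listed held 0.292% and 0.293% of all counts after vehicle and 1.48% and 1.49% after the inhibitor. Of the 71, the 4 that did not pass the test were PARP11, APOBEC3C, APOBEC3D and APOBEC3H.

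Several families of effector rose together. MX2, a GTPase that blocks nuclear entry of viral genomes, was at 0.813 and 0.894 CPM after vehicle and at 102 and 111 CPM after the inhibitor, a 124-fold rise. MX1, its cytosolic relative, started far higher, at 56.1 and 54.5 CPM, and reached 902 and 903 CPM (16.3-fold). ISG15, a ubiquitin-like protein joined to other proteins, was at 202 and 196 CPM after vehicle and at 1420.0 and 1484 CPM after the inhibitor (7.28-fold, edgeR adjusted p = 6.451e-20). The enzymes that attach ISG15 rose with it: UBA7 by 2.90, UBE2L6 by 2.68 and HERC5 by 3.64. RSAD2, whose product viperin makes a chain-terminating nucleotide, had 105 and 121 counts after vehicle and 3519 and 3487 after the inhibitor (4.82). CMPK2, its genomic neighbour and a nucleotide kinase, had 97 and 102 counts against 4086 and 3783 (5.17).

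Among the other effectors, IFIT2 (3.38) and IFIT3 (3.71) rose close to IFIT1, and IFITM1 (3.56) and IFITM3 (1.30), which hinder viral fusion with membranes, rose as well. GBP1, a guanylate-binding protein that attacks intracellular pathogens, rose by 3.97. GBP4 had 8 and 13 counts after vehicle and 227 and 231 after the inhibitor (4.29), and GBP5 was listed at 0 after vehicle with 38 and 65 counts after the inhibitor. XAF1, a pro-apoptotic protein, rose by 4.01, RTP4 by 4.75, IFI44L by 3.25 and TRIM22 by 3.54. GBP4, GBP5 and RTP4 passed the filter only through the inhibitor group. The cytidine deaminases split: APOBEC3B rose by 1.17 and APOBEC3F by 1.80, while APOBEC3C differed by 0.07 (edgeR adjusted p = 0.479). Of the effectors with a RefSeq promoter, 35 of 51 (68.6%) held an ISRE match, against 4.08% over all genes tested.

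Most genes of class I antigen presentation rose at the RNA level, from those of peptide cutting to those of the surface chains. Peptides and surface protein were not measured. Of 22 genes tested, 20 rose, 11 of them at least 2-fold, and none fell (median 1.09). The immunoproteasome subunits PSMB9 (2.95) and PSMB8 (1.43), which change how peptides are cut, rose. TAP1, which carries peptides into the endoplasmic reticulum, rose 4.61-fold, from 68.3 and 66.0 CPM to 305 and 314 CPM. The trimming enzymes ERAP1 (0.43) and ERAP2 (1.68) and the loading factor TAPBP (0.85) rose as well. Heavy chain genes rose too. HLA-B was at 51.5 and 53.3 CPM after vehicle and at 202 and 210.2 CPM after the inhibitor (3.94-fold, edgeR adjusted p = 8.138e-16). HLA-C went from 460 and 467 CPM to 1056 and 1099 CPM (2.33-fold). Reads of these polymorphic genes resemble each other, so how they were assigned is uncertain. B2M, the light chain shared by all of them, rose 2.86-fold, from 391.5 and 373 CPM to 1114 and 1071 CPM. NLRC5, the transcription factor of class I genes, rose 4.84-fold, from 16.4 and 14.95 CPM to 73.2 and 78.5 CPM. CANX, a general chaperone, differed by -0.02 and did not pass. A promoter ISRE was found in 11 of 18 class I genes (61.1%).

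Class II genes gave little signal. Of 7 tested, 3 of them only through the inhibitor group, 2 rose, HLA-DMA (0.80) and HLA-DMB (1.18), and DESeq2 called neither, nor did either keep its call without inhibitor replicate 1. CIITA, the class II transcription factor, had 6 and 22 counts after vehicle and 37 and 18 after the inhibitor, so its groups overlapped. Among 17 surface ligands for T and NK cells, 10 rose and 1 fell (median 0.40). CD274, the gene of PD-L1, had 44 and 34 counts after vehicle and 446 and 458 after the inhibitor, a rise of 3.39 ± 0.17 (SE). PDCD1LG2, the gene of PD-L2, had 13 and 0 counts against 66 and 77 (3.30) and passed the filter only through the inhibitor group. LGALS9, which binds TIM-3, had 20 and 31 counts against 569 and 539 (4.30). CD47, the "do not eat me" signal to macrophages, rose by 0.58. The ligands of the NK receptor NKG2D moved unequally: RAET1L rose by 2.40 and MICB by 0.48, while MICA differed by 0.17 (edgeR adjusted p = 0.05826). PVR, a ligand of DNAM-1 and TIGIT, fell by 0.17 (edgeR adjusted p = 0.003394).

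Of 24 chemokine genes listed, 11 passed the filter, and 3 of these (CCL20, CXCL10 and CXCL11) passed only through the inhibitor group, where they were high. The other 8 rose (median 1.53). CXCL10, which draws T cells, was listed at 0 after vehicle and had 72 and 66 counts after the inhibitor, and CXCL11 had 3 and 0 counts against 31 and 52. CXCL9, of the same trio, was at 0 in all 4 libraries. The neutrophil chemokines rose too. CXCL8 had 263 and 191 counts after vehicle and 1148 and 907 after the inhibitor, a rise of 2.04 ± 0.13 (SE). CXCL5 was the highest of them in both groups by CPM, at 258 and 256 CPM after vehicle and at 460 and 447 CPM after the inhibitor (1.77-fold). CXCL1 rose by 1.71, CCL20 by 2.45 and CCL22 by 1.79. Levels here are not divided by transcript length, so this order is of reads and not of molecules.

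Of 22 cytokine genes tested, 15 rose and none fell, and 9 rose with no low-count filter. IL6, a central inflammatory cytokine, was at 5.59 and 5.32 CPM after vehicle and at 22.8 and 21.4 CPM after the inhibitor (4.06-fold). CSF1 (1.24), which supports macrophages, IL7 (1.51), and TNFSF13B (3.44) rose. IL1B, IL15, IL18 and LIF did not pass. TNF had 0, 0, 10 and 6 counts and was not tested. In the NF-kB pathway 21 of 25 genes tested rose and none fell, with a median of 0.49. NFKBIA (0.67) and TNFAIP3 (1.07), which feed back on the pathway, and SOD2 (0.74), a mitochondrial superoxide dismutase, rose. BIRC3 rose 2.62-fold, from 47.8 and 48.3 CPM to 128 and 123 CPM. A promoter ISRE was found in 2 of 23 NF-kB pathway genes (8.70%).

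Genes of cell death were also measured. Of 26 genes of death receptors and inflammatory death tested, 15 rose and 2 fell (median 0.28). TNFSF10, the gene of the death ligand TRAIL, rose 10.9-fold, from 2.18 and 2.61 CPM to 27.4 and 24.99 CPM. One of its decoy receptors, TNFRSF10D, fell 1.81-fold, from 89.2 and 93.5 CPM to 49.2 and 51.7 CPM. CASP1 rose by 2.16, MLKL, the executor of necroptosis, by 0.80 and GSDMD, the pore of pyroptosis, by 0.46. In the BCL2 family 7 of 15 tested rose, beside 13.6% of all genes tested. Among them was PMAIP1, the gene of NOXA, at 107 and 109 CPM after vehicle and 217 and 213 CPM after the inhibitor (1.996-fold). MCL1, which NOXA binds, rose by 0.45.

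**Figure D4:**
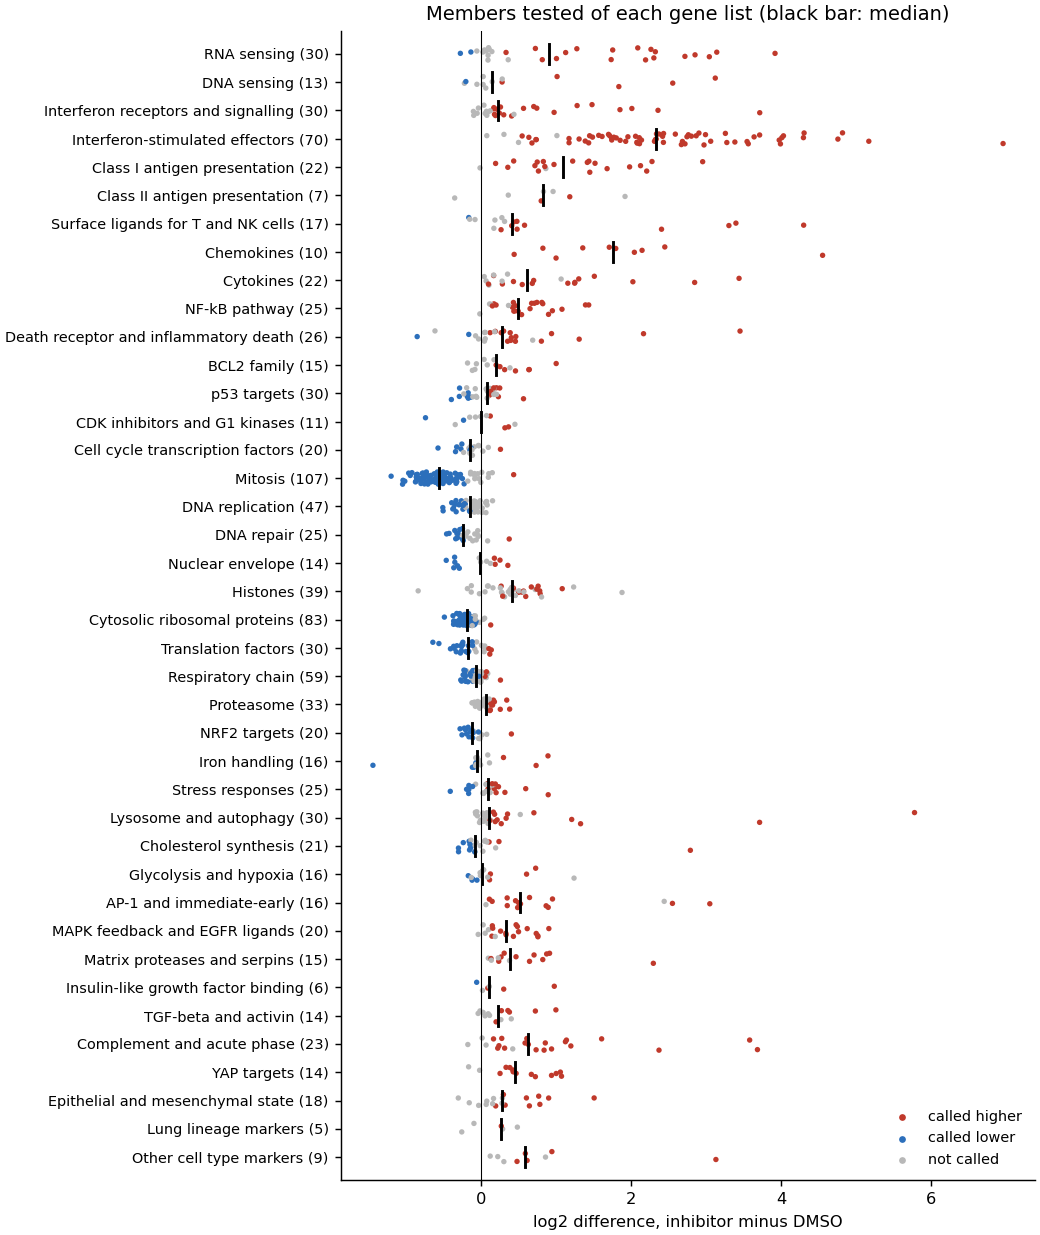
Log2 difference, inhibitor minus vehicle, of the members tested of 40 gene lists, 1 point per gene (red, called rise; blue, called fall; grey, not called), with the median as a black bar; genes listed at 0 in a group are left out. The median bars of interferon-stimulated effectors, class I antigen presentation and chemokines stand above 1, and that of the mitosis genes stands below 0.

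Several other programmes rose by smaller amounts. Of 16 AP-1 and immediate-early genes tested, 14 rose (median 0.51). EGR1, a transcription factor made within minutes of growth factor signalling, had 40 and 50 counts after vehicle and 393 and 426 after the inhibitor (3.05 ± 0.17, SE). FOSB rose by 2.55, JUN by 0.95 and FOS by 0.86. Of 20 genes of MAPK feedback and EGFR ligands, 15 rose (median 0.33). EREG, an EGFR ligand, rose 1.69-fold, from 108 and 111 CPM to 189.9 and 179 CPM, and AREG (0.50), HBEGF (0.73) and BTC (0.75) rose. So did EGFR (0.46) and the MAPK phosphatases DUSP5 (0.61) and DUSP10 (0.90). Of 14 YAP target genes tested, 12 rose, among them CCN1 (1.07) and CCN2 (1.00).

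Of 23 complement and acute phase genes tested, 3 passed the filter only through the inhibitor group, and of the other 20, 17 rose and none fell (median 0.62). CFB, of the alternative pathway, rose 3.04-fold, from 25.4 and 23.1 CPM to 73.8 and 73.7 CPM, and C1R, of the classical pathway, rose 2.29-fold, from 77.7 and 75.6 CPM to 172 and 178 CPM. SERPING1, the inhibitor of C1, had 3 and 5 counts after vehicle and 63 and 45 after the inhibitor (3.58). It was among the 3 that passed only through the inhibitor group. SAA1, an acute phase protein, had 18 and 26 counts against 129 and 122 (2.37). CD46, a membrane inhibitor of complement, differed by 0.01 (edgeR adjusted p = 0.8358). Of 16 matrix proteases and serpins tested, 12 rose, among them MMP1, with 16 and 12 counts after vehicle and 85 and 67 after the inhibitor (2.29). NT5E, the gene of the adenosine-making enzyme CD73, rose 2.08-fold, from 92.6 and 87.4 CPM to 192 and 182 CPM.

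The mitosis genes fell together. Of 107 tested, 92 fell, 1 rose and 14 did not pass, with a median of -0.57, against 0.00 over all genes tested. Their summed level was 5397 and 5373 CPM after vehicle and 3851 and 3800.0 CPM after the inhibitor, with no overlap. These are bulk libraries, so fewer cells in mitosis and less RNA of these genes per cell cannot be told apart.

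TTK, which encodes the target of the inhibitor, was at 19.4 and 19.2 CPM after vehicle and at 12.2 and 11.5 CPM after the inhibitor, a 1.63-fold fall (edgeR adjusted p = 9.027e-06). The inhibitor acts on the kinase and not on its transcript, so this level does not check the treatment. Of the 14 checkpoint genes 9 fell (median -0.37), among them BUB1 by 0.62, BUB1B by 0.70 and MAD2L1 by 0.43. MAD1L1 and ZW10 did not pass.

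The role medians ran from -0.31 for genes of anaphase and mitotic exit to -0.71 for genes of the spindle and cytokinesis. Of 17 mitotic kinases, cyclins and phosphatases 16 fell (median -0.61). CCNB1, the gene of cyclin B1, fell 1.90-fold, from 71.9 and 71.7 CPM to 38.3 and 37.3 CPM, and CDK1, its kinase partner, fell by 0.56. CCNB2 fell by 1.05 and AURKA by 0.79. MASTL, which keeps the phosphatase that opposes CDK1 in check, was the 1 gene of the list that rose, from 24.9 and 28.1 CPM to 35.4 and 36.0 CPM (0.43, edgeR adjusted p = 0.0001533). CDC20, which activates the anaphase-promoting complex, fell 1.93-fold, from 57.3 and 54.3 CPM to 27.6 and 30.3 CPM.

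All 12 kinesins fell (median -0.65), with KIF20A, needed for cytokinesis, at -1.02. All 5 chromosomal passenger genes fell, AURKB by 0.61. Of the other roles, 18 of 21 kinetochore genes, 17 of 18 spindle and cytokinesis genes and 10 of 11 chromosome structure genes fell. TOP2A, which untangles sister chromatids, fell 1.80-fold, from 224 and 221 CPM to 127 and 121 CPM, and CENPA, the centromeric histone, fell by 0.87. PRR11 fell the most of the list, by 1.20. MKI67, the gene of the proliferation marker Ki-67, fell by 0.47. ECT2, which starts cytokinesis, did not pass, at 175 and 171 CPM against 171 and 164 CPM (edgeR adjusted p = 0.3711). A promoter CHR was found in 66 of 92 mitosis genes (71.7%) and a CCAAT box in 67 of 92 (72.8%), against 15.6% and 42.6% over all genes tested.

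**Figure D5:**
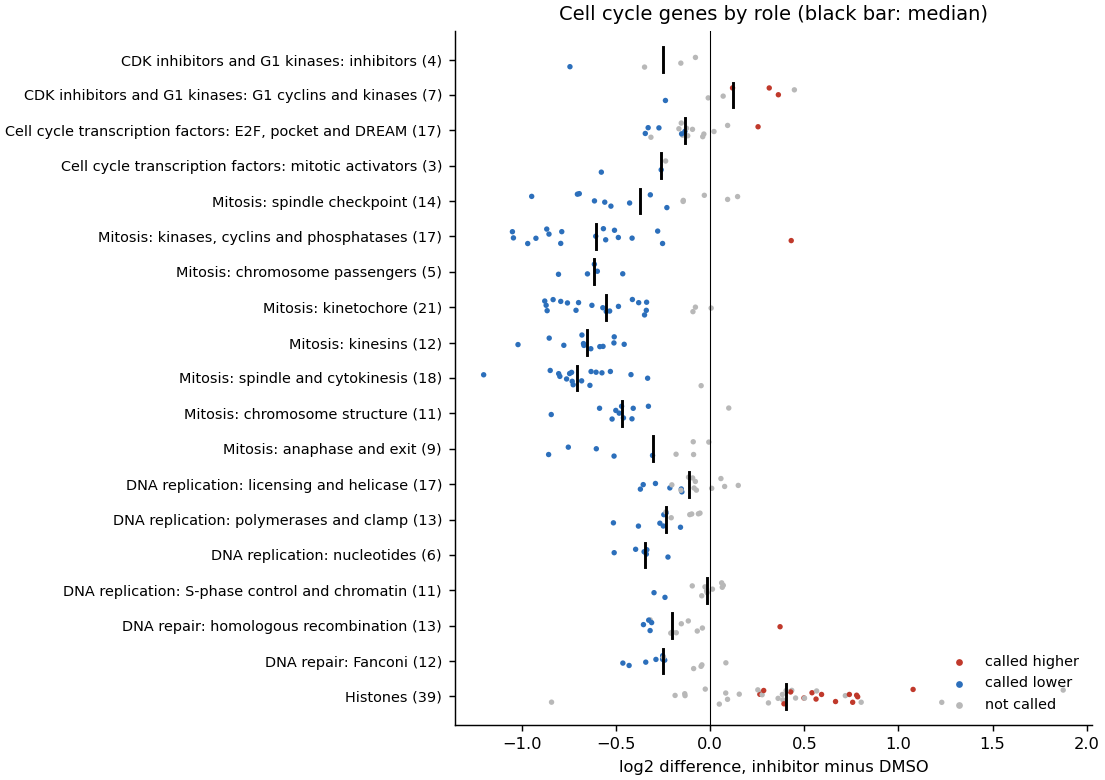
Log2 difference, inhibitor minus vehicle, of cell cycle genes by role, 1 point per gene (red, called rise; blue, called fall; grey, not called), with the median as a black bar. Kinesins (median -0.65) and mitotic kinases (median -0.61) lie lower than the checkpoint genes (median -0.37).

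DNA replication genes differed by less. Of 47 tested, 21 fell and none rose (median -0.15), and 12 fell by DESeq2 and 10 with no low-count filter. The licensing factors were split: 6 of 17 fell, while MCM2, a helicase subunit, stood at 92.9 and 95.5 CPM against 94.7 and 94.8 CPM (edgeR adjusted p = 0.9151). PCNA, the polymerase clamp, stood at 145 and 141 CPM against 138 and 136 CPM (edgeR adjusted p = 0.2298). All 6 genes of nucleotide supply fell, among them RRM1 by 0.34, RRM2 by 0.22, TYMS by 0.35 and TK1 by 0.40. A promoter CHR was found in 4 of 43 replication genes (9.30%). Among the transcription factors of the cell cycle, FOXM1, an activator of mitotic genes, fell from 151 and 149 CPM to 99.1 and 102 CPM (-0.58), and MYBL2 fell by 0.26. E2F1, an activator of replication genes, stood at 22.95 and 22.5 CPM against 22.3 and 22.04 CPM (edgeR adjusted p = 0.7855).

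The p53 targets moved in both directions, with 7 of 30 tested higher and 7 lower (median 0.07) beside 13.6% higher and 12.4% lower over all genes tested. CDKN1A, the gene of the cell cycle inhibitor p21, was already at 741 and 738 CPM after vehicle and stood at 786 and 806 CPM after the inhibitor, a 1.08-fold rise (edgeR adjusted p = 0.003185). GDF15, a secreted stress protein, stood at 730.2 and 760 CPM after vehicle and at 862 and 881 CPM after the inhibitor. MDM2 rose by 0.20 and PLK2 by 0.56, while ZMAT3 fell by 0.40. The number of p53 targets that fell was 4 by DESeq2, 3 without inhibitor replicate 1 and 4 without inhibitor replicate 2. CDKN2A and CDKN2B, which encode INK4 inhibitors of CDK4, were at 0 in every library, and CDKN2C fell 1.68-fold, from 17.4 and 15.6 CPM to 11.0 and 8.65 CPM.

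The nuclear envelope genes split, with 4 of 14 higher and 6 lower, beside 13.6% and 12.4% of all genes tested. LMNB1, the gene of lamin B1, fell from 40.7 and 43.3 CPM to 29.6 and 31.0 CPM, and LMNB2 (-0.32), LBR (-0.29) and EMD (-0.36) fell, while LMNA rose from 348 and 357 CPM to 397 and 404 CPM. Of 39 histone genes tested, 32 passed the filter in both groups, and of these 14 rose and none fell (median 0.42), among them H2AC18, at 28.5 and 30.6 CPM after vehicle and 50.4 and 50.9 CPM after the inhibitor. Most histone transcripts lack a poly(A) tail, so these values cover only the part captured by poly(A) selection, and near-identical copies are uncertain.

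Ribosomal protein genes made up the most uniform set of small falls. Of 83 cytosolic ones tested, 74 fell, with a median of -0.19, and their share of all counts went from 6.56% and 6.66% to 5.57% in each inhibitor library. RPL3 was among the larger, at 2139 and 2144 CPM after vehicle and 1506 and 1536 CPM after the inhibitor (-0.49). RPS27L, a p53 target related to a ribosomal protein, was the 1 that rose, and its call was lost when a library was left out. Of 30 translation factors 19 fell and 3 rose, and DESeq2 called none of the 3. EEF1A1, which brings tRNA to the ribosome, went from 9892 and 9772 CPM to 8133 and 8216 CPM, and EIF4B, a helper of the cap-binding complex, from 1350.0 CPM in each vehicle library to 865 and 859 CPM (1.57-fold lower). Ribosomal proteins and many translation factors share a 5′ terminal oligopyrimidine tract in their transcripts, and EEF2 (-0.41) and PABPC1 (-0.34), which carry it, also fell.

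ACO1 showed the largest fall of the genes above the level limit used for naming. It encodes an aconitase that, without its iron-sulphur cluster, becomes IRP1, a regulator of iron genes. ACO1 was at 114 CPM in each vehicle library and at 41.8 and 42.1 CPM in the inhibitor libraries, a 2.73-fold fall (-1.45 ± 0.04, SE, edgeR adjusted p = 1.037e-13). In RefSeq (GRCh38.p14) ACO1 ends 532 bases from the end of RIGI on the opposite strand of chromosome 9, and the strand setting of the authors' counting is not given in the sources used here. The transcripts that IRP1 binds moved little: FTH1 fell by 0.07 and FTL by 0.10, both ferritin chains, and TFRC, the transferrin receptor, fell by 0.08, a call lost when a library was left out. Of 20 NRF2 target genes, which handle oxidants, 14 fell and 1 rose (median -0.13). The 1 that rose was HMOX1, at 180.2 and 179 CPM after vehicle and 232 and 242 CPM after the inhibitor, whereas SLC7A11 fell by 0.23 and AKR1C2 by 0.22. TKT, of the pentose phosphate pathway, went from 2478 and 2486 CPM to 1988 and 2087 CPM. PHGDH, which starts serine synthesis, fell from 227 and 231 CPM to 169 and 174 CPM.

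Lysosome and sterol genes held a few large rises within groups that otherwise moved little. Of 30 lysosome and autophagy genes, 13 rose (median 0.10), beside 13.6% of all genes tested. SLC15A3, a lysosomal peptide transporter, had 5 and 6 counts after vehicle and 345 and 332 after the inhibitor (5.78), LAMP3 rose by 3.71 and the protease gene CTSS by 1.32. CD68 rose from 69.5 and 72.1 CPM to 162 and 165 CPM. CH25H, which makes the antiviral sterol 25-hydroxycholesterol, had 8 and 15 counts after vehicle and 80 and 96 after the inhibitor (2.79). SLC15A3 and CH25H passed the filter only through the inhibitor group, so their calls are no independent support. Among genes that passed in both groups, 3 of 29 lysosome and autophagy genes and 0 of 20 cholesterol genes rose at least 2-fold. Of 21 genes of cholesterol synthesis, 8 fell and 3 rose, with FDPS at -0.31, beside 12.4% lower and 13.6% higher over all genes tested. Mitochondrially encoded transcripts held 5.16% and 5.13% of counts after vehicle and 4.95% and 4.90% after the inhibitor.

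Outside the lists, the largest rise by the naming rule was in NEXN, which encodes an actin-binding protein. It had 16 and 5 counts after vehicle and 464 and 408 after the inhibitor (5.22 ± 0.26, SE). With 1 vehicle library under the minimum count, NEXN passed the filter in both libraries of the inhibitor group alone. With readthrough loci left out, the 15 largest falls held ACO1, a number of mitotic genes and also AKNA, a gene of an AT-hook protein that organises microtubules, with 512 and 565 counts against 285 and 276 (-1.08 ± 0.10, SE, edgeR adjusted p = 8.156e-07), MXD3, a partner of MAX, with 215 and 239 against 121 and 120 (-1.05), and NEURL1B (-1.01). DEPDC1 (-1.03), TROAP (-0.97), GPSM2 (-0.92) and CDCA3 (-0.92), which take part in mitosis or spindle placement, completed the set.

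Of 1903 long noncoding RNA genes tested, 101 rose, 59 of them at least 2-fold, and 76 fell, 11 of them at least 2-fold. These shares, 5.31% higher and 3.99% lower, stand beside 13.6% and 12.4% over all genes tested. The 59 and 11 of 1903 stand beside 521 and 38 of 16738 over all genes tested (3.11% and 0.227%). The low shares therefore hold for calls of any size and not for changes of at least 2-fold. FAM247A had 26 and 20 counts after vehicle and 335 and 325 after the inhibitor (3.70). It belongs to a family of near-identical copies, of which FAM247D (3.55) and FAM247C (2.96) also rose, so how reads were split between them is uncertain. LINC00641 had 401 and 448 counts after vehicle and 264 and 265 after the inhibitor (-0.82 ± 0.11, SE). Of all genes in the table, 56 were listed at 0 in both vehicle libraries with at least 10 counts in each inhibitor library, and 5 showed the opposite. The 56 hold IFNL2 and IFNB1 and also ETV7, an interferon-stimulated transcription factor (33 and 29 counts), MMP13, a collagenase (39 and 20), AIM2, a DNA sensor (18 and 17), ENTPD1, the gene of CD39, which breaks down extracellular ATP (27 and 16), and LINC01980 (46 and 30). GPRASP3 was among the 5, with 84 and 119 counts after vehicle and 0 in both inhibitor libraries, next to its relative GPRASP2, which rose.

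The line's identity was checked against markers. Of 14 lung lineage markers 7 were at 0 in every library, NKX2-1 and SFTPB among them, so the labelled lung origin has little support from lineage factors here. The epithelial keratin KRT8 was at 2199 and 2206 CPM after vehicle and 2664 and 2735 CPM after the inhibitor. The lung lineage markers summed to 37.1 and 38.6 CPM after vehicle and to 44.9 CPM in each inhibitor library, and FOXA1, an epithelial pioneer factor, was the 1 of 5 tested that rose (0.27). Of 22 markers of other cell types 8 were at 0 in every library, among them PTPRC, CD3D and CSF1R, which define leukocytes. The leukocyte markers summed to 3.53 and 4.93 CPM after vehicle and to 4.68 and 6.38 CPM after the inhibitor, and these groups overlapped. The fibroblast and endothelial markers summed to 34.2 and 30.5 CPM after vehicle and to 48.3 and 47.8 CPM after the inhibitor. Of 9 markers of other cell types tested, 3 of them (CD4, CD8A and LYZ) only through the inhibitor group, 5 rose, LYZ, COL1A1, PECAM1, DCN and LUM, and 2 rose without inhibitor replicate 2. Of 18 genes of epithelial and mesenchymal state, 9 rose, among them SNAI2 (0.78)and CLDN4 (0.64), and VIM and CDH1 did not pass.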

How the data were processed

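RNA was sequenced from NCI-H1944 cells, 2 libraries per group, made with a TruSeq stranded mRNA kit per the labels' protocols. The deposited values are whole-number counts per gene under NCBI gene IDs, not normalized. Trimming tools (cutadapt, Trim Galore, Trimmomatic), aligners (HISAT2, STAR), counters (StringTie, featureCounts) and the build GRCh38 are listed in the submitters' processing notes. Which of them the authors used for this table, in which version, with which annotation and strand setting is not given in the sources used here, so overlapping, antisense and near-identical genes are uncertain, and so is whether a value is a tally of reads or a rounded estimate. Another line's 4 columns in the series were not used.

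Columns were matched to samples by name, and 44698 of 46427 IDs were matched to a RefSeq table (GRCh38.p14), which supplied current symbols. Counts were analysed in R 4.3.3 with edgeR 4.0.16: filterByExpr (minimum count 10, minimum total 15), TMM factors, the quasi-likelihood F test and Benjamini-Hochberg adjustment with a threshold of 0.05. The SE is the absolute log2 difference over the root of F. The fit was tested on simulated data. Alternatives were RLE factors, total counts alone, DESeq2 1.42.0, no filter, a stricter filter, the replicate block and leaving out each library. With a library left out, its group's lone sample is assumed to vary like the other group. The Pearson correlation between replicates, across genes, was 0.989 and 0.992, and the biological coefficient of variation was 3.99%.

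The 41 gene lists were described by counts and medians and not tested as sets. Their counts of called members stand beside 13.6% higher and 12.4% lower over all genes tested. Where the text does not say otherwise, at most 2 members of a list passed the filter through 1 group alone. Members and lists were chosen with earlier results of these data known. The named genes follow a rule: a fixed set taken whatever its outcome; of each role on a list, up to 3 called members with the smallest adjusted p and the uncalled member with the highest level; the 15 largest rises and falls among called genes whose mean log2 CPM was 1 or more, with both inhibitor libraries on 1 side of both vehicle libraries and without readthrough loci, histone or ribosomal protein genes; the 5 largest of each among long noncoding RNAs; and up to 12 genes listed at 0 in a group. The text gives part of these as examples, and a few further list members were picked after their values were seen.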

Additional observations from a re-analysis of the deposited data

How the results depend on the processing

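No named gene that was called changed direction under any alternative. Of 401 named genes with a fit, 322 were called, and 288 of these kept their call in every alternative; over all named genes and alternatives, 100 results lost the call and 39 gained it. The numbers of rises and falls were 2271 and 2075 as reported, 1620 and 1400 by DESeq2, and 1319 and 1006 with no low-count filter. With DESeq2, 382 rises and 27 falls were at least 2-fold, and with no filter 350 and 19, against 521 and 38 as reported. A stricter filter (at least 50 counts in 2 libraries) left 336 rises and 21 falls of at least 2-fold, since fewer genes were tested. Leaving out 1 library gave 1780 to 2044 rises, 1631 to 1708 falls, 425 to 631 rises of at least 2-fold and 50 to 61 falls of at least 2-fold, the last being 61 without inhibitor replicate 1. Except for the stricter filter, the cause was not tested. With a minimum of 5 counts in the other group, 192 genes were at 0 in both vehicle libraries and 18 at 0 in both inhibitor libraries. With 200 bases before the start in place of the full window, the ISRE share among genes that rose at least 4-fold was 27.8%.

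Same-numbered replicates did not deviate together (correlation 0.044), so the numbers are not taken to pair the samples. With the replicate block there were 2490 rises and 2327 falls, of which 524 and 40 were at least 2-fold. With 2 libraries a group, genes under about 10 counts are the least precise.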

Other observations

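The strongest rises included neighbours on a chromosome. Of 443 protein-coding genes that rose at least 2-fold and have a RefSeq position, 38 lay in 11 runs of at least 3 neighbouring tested genes. The runs were found after the values were seen, and how many such runs other sets of genes would hold was not counted. The longest held 5 genes, GBP3, GBP1, GBP2, GBP4 and GBP5. Another of the same length held TAP2, PSMB8, TAP1, PSMB9 and HLA-DMB, in the class II region of the HLA complex. Others were IFIT2, IFIT3, IFIT1 and IFIT5, the run OAS1, OAS3 and OAS2, and the run IFNL3, IFNL2 and IFNL1. One run held keratins of stratified epithelium, KRT34, KRT15 and KRT14, and another PARP9, DTX3L and PARP14, whose proteins act together in ADP-ribosylation.

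Several records of overlapping loci moved in opposite directions, and were singled out after their values were seen. PLA2G4B had 107 and 75 counts after vehicle and 7 and 1 after the inhibitor, while its readthrough record JMJD7-PLA2G4B had 0 and 0 against 158 and 130. Their sum was 107 and 75 against 165 and 131. CNTF had 42 and 48 counts against 0 and 0, while ZFP91-CNTF had 0 and 0 against 75 and 97. KLRK1 had 0 and 0 counts against 46 and 76, while KLRC4-KLRK1 had 56 and 83 against 42 and 23, and the sums were 56 and 83 against 88 and 99. For TREX1 and ATRIP-TREX1 both records were higher, and the sum was 138 and 141 against 858 and 667. USP18 with USP41P summed to 484 and 435 counts after vehicle and 6776 and 6720 after the inhibitor. HLA-G was listed at 0 and 150 counts after vehicle and at 0 and 298 after the inhibitor, so that 1 library of each group was at 0.

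Of 138 protein-coding genes that fell at least 1.5-fold and have a position, 4 lay next to a gene that rose at least 4-fold. One pair was ACO1 and RIGI, which end 532 bases apart on opposite strands. The others were ARHGAP11A with ARHGAP11A-SCG5, GPRASP3 with GPRASP2, and KLRC4-KLRK1 with KLRK1, of which the first and the last are overlapping records. These pairs were found after the values were seen, and what links the falls to the neighbouring rises was not tested. How often other tested genes lie next to such a rise was not counted, so the 4 pairs show no excess.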
